A study of Mus musculus with 18 samples.

Results

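Smooth muscle contractile genes were followed across sorted colon epithelial cells as 10 genes out of the 30869 gene symbols on the array: Actg2, Acta2, Myh11, Tagln, Cnn1, Des, Mylk, Tpm2, Lmod1 and Synpo2. Every probe that carries one of these symbols was taken, which gave 21 probes, with no choice among probes by measured value. The genes themselves were chosen with earlier results of these data known. The genes were chosen as a gauge of muscle RNA in cells that were sorted as epithelium. Messenger RNA was read on Illumina MouseWG-6 BeadChips, on which beads carry a 50-base probe for each transcript. Colon epithelial cells had been sorted as EpCAM+ and negative for CD45, lineage markers, CD3 and F4/80. Smooth muscle cells lack EpCAM, so the gate is not meant to hold them. The 4 groups were wild-type (WT) and Mbd2-/- (Mbd2KO) mice on a C57BL/6 background, either naive or given 2% dextran sulphate sodium (DSS), a polymer in the drinking water that damages the mucosa and brings on colitis. They are called Naive_WT, Naive_KO, DSS_WT and DSS_KO below. Mice were adults matched for age and sex, the knockout affects every tissue, and a replicate may pool several mice, so the p-values measure the spread between these samples. Each group held 4 samples, numbered as in the labels: 9 to 12 Naive_WT, 13 to 16 Naive_KO, 1 to 4 DSS_WT and 5 to 8 DSS_KO.

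Smooth muscle forms the muscularis of the colon and, as thin strands, the muscularis mucosae that lies just under the crypts. Its cells contract when myosin light chain kinase phosphorylates the regulatory light chain of smooth muscle myosin, which then pulls on filaments of smooth muscle actin decorated with tropomyosin and calponin. Most genes of this apparatus are switched on together by serum response factor and its partner myocardin, which act through a short DNA element, the CArG box. Myofibroblasts, pericytes and vascular smooth muscle use some of the same genes, Acta2 above all, so no member marks a single cell type by itself.

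The probes are shown first because each level below is the brightness of 1 such stretch of bases. The 3 members that were called in the comparison of DSS_KO with DSS_WT are each represented by the first 30 bases of the brightest probe.

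Actg2: tccccacaagactgctgtcaccagccacag

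Myh11: cacttgtgtccattcgttctcaagtcacag

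Tagln: agcatgttgggctcacacgttcctggccga

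The deposited table places the 50 bases of the Actg2 probe at chr6:83462905-83462954 and those of the Myh11 probe at chr16:14195024-14195073, on the reverse strand, and states no genome build. No place is given there for the Tagln probe. A pair of Acta2 probes is also shown, because they differ by a shift of 1 base and so measure nearly the same stretch on separate beads. Capitals mark the 49 bases that they share.

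Acta2 first probe: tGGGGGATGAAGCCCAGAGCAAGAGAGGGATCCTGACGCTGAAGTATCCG

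Acta2 second probe: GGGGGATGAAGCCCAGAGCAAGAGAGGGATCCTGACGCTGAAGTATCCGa

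Serum response factor binds the CArG box, so the bases before the start of the member genes were searched for it. RefSeq promoters (GRCm38.p6) were at hand for 7 of the 10 members (Acta2, Cnn1, Des, Lmod1, Mylk, Synpo2 and Tpm2). In the 250 bases before the start, 0 of the 7 held an exact CArG box, against 1.47% of all 32851 promoters in the table. With at most 1 mismatch in its A and T core, a box was found in 1 of the 7, Acta2, against 8.59% of all promoters. The box reads the same from either strand, so 1 search covered both. Acta2 held 2 such boxes, which 0.67% of all promoters do, and its 250 bases are shown with both in capitals (chr19:34255374-34255623, reverse strand).

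Acta2 promoter: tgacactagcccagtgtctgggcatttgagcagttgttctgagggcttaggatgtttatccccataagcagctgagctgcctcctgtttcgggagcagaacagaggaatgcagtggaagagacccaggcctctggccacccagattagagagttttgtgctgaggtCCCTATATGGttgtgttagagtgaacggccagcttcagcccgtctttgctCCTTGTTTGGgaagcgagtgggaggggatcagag

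The first box, CCCTATATGG, begins 84 bases before the start, and the second, CCTTGTTTGG, begins 34 bases before it. These matches describe the letters of the window only. No binding was measured here.

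Of the 21 probes, 14 passed the filter on dim probes (detected at p under 0.05 on 4 or more of the 18 arrays), and they covered 8 of the 10 genes. Cnn1 (calponin), with 1 probe, and Synpo2 (an actin-bundling protein of the Z-line), with 2, were detected on 0 of 18 arrays and were not tested. A second probe of Myh11, a further probe of Acta2 and 2 further probes of Tpm2 were also detected on 0 arrays. For genes with several tested probes the brightest stands for the gene, and for members the others are given beside it. Epithelial identity was clear from the fixed markers, since the keratin Krt8 and the brush-border protein Vil1 were detected on all 18 arrays with group means of 14.65 to 14.70 and 12.12 to 12.34 on the log2 scale, and Epcam lay between 6.83 and 7.45. Defining markers of smooth muscle, Actg2, Myh11 and Des, were detected on all 18 arrays as well. The labels do not explain arrays 4R and 5R. They were taken as repeats of arrays 4 and 5 and averaged with them. Over the 8 tested members, the median absolute log2 difference between repeats was 0.0536 for sample 4 and 0.141 for sample 5. The Mbd2 probe was detected on 0 of 18 arrays, WT arrays included, so it could not check the genotype labels.

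With DSS, the contractile genes were lower in Mbd2KO than in WT epithelial sorts. All 8 tested genes had a lower mean in DSS_KO, with a median log2 fold change of -1.01, against -0.0193 over all 15757 genes tested. In limma with Benjamini-Hochberg adjustment over all probes, 3 of the 8 were called lower (adjusted p under 0.01 and a log2 fold change of at least 1 in size): Tagln, Actg2 and Myh11. Of all genes, 0.419% were called lower in this comparison. At an adjusted p under 0.05, 5 of the 8 were lower, against 3.52% of all genes, and for 6 of the 8 every DSS_KO sample lay below every DSS_WT sample, against 9.1% of all genes. Because the members were chosen with earlier results of these data known, these shares are a description and no test of the list. In bulk RNA, fewer cells of a type and less RNA per cell cannot be told apart.

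**Figure D1:**
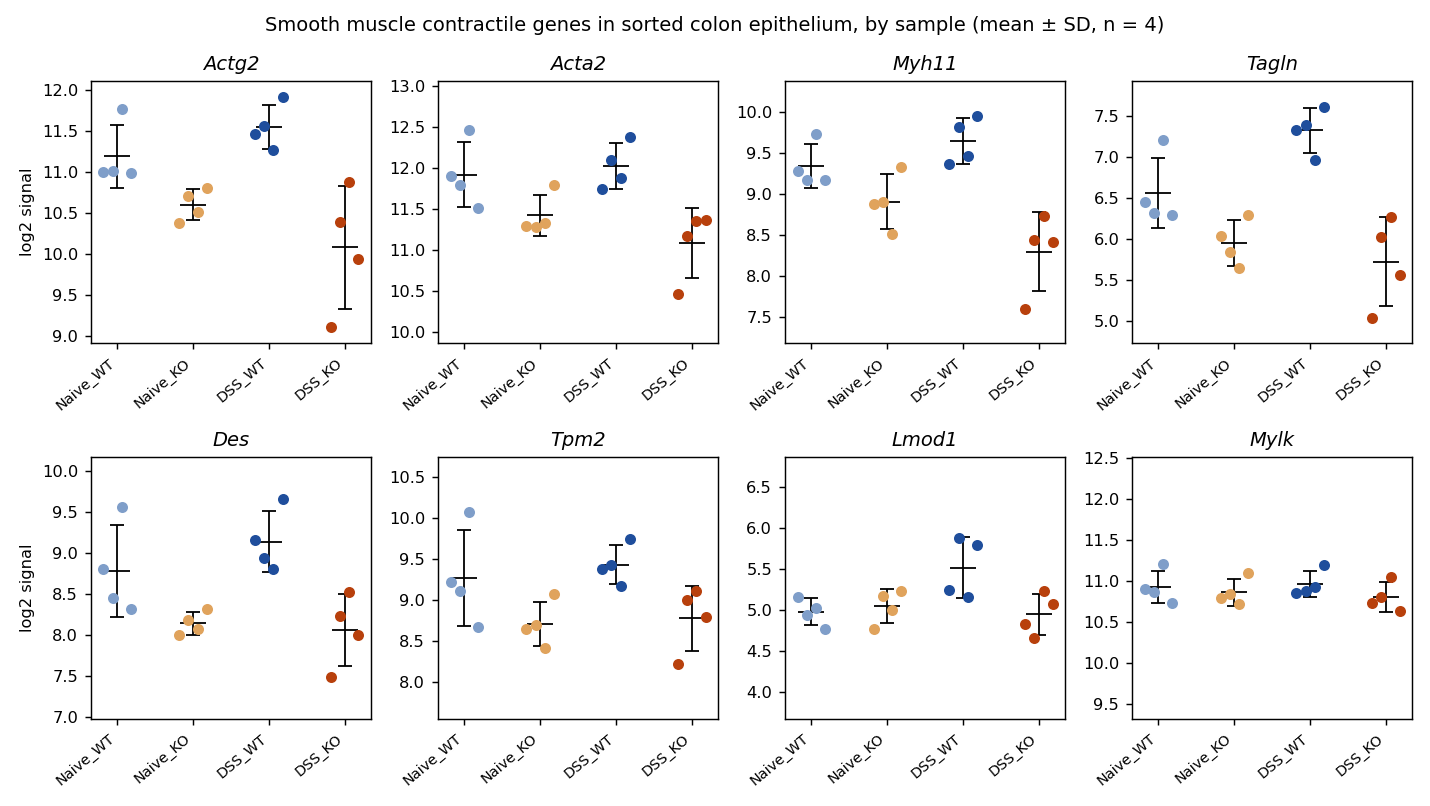
Log2 signal (vertical axes, each spanning at least 3.2 log2 units) of the 8 tested contractile genes in the 4 groups (horizontal axes). Points are samples in label order, bars the mean ± SD of 4 samples. DSS_KO samples lie below all DSS_WT samples for Actg2, Acta2, Myh11, Tagln, Des and Tpm2, and the groups overlap for Lmod1 and Mylk.

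Both smooth muscle actins were lower. Actg2, the gamma actin of visceral smooth muscle, read 11.47, 11.57, 11.27 and 11.92 on the log2 scale in DSS_WT samples 1 to 4 and 9.11, 10.40, 10.88 and 9.95 in DSS_KO samples 5 to 8. The groups did not overlap, and sample 5 lay lowest. Its log2 fold change was -1.47 (SE 0.283), a 2.78-fold lower level, with an adjusted p of 0.00721 in limma. Naive samples lay between both DSS groups in their means: Actg2 read 11.00, 11.02, 11.78 and 10.99 in Naive_WT and 10.38, 10.71, 10.52 and 10.81 in Naive_KO. These naive groups did not overlap either, as for 5.96% of all genes in this direction, but the difference of -0.59 (95% interval -1.19 to 0.0062) had an adjusted p of 0.224 in limma.

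Acta2, the alpha actin of vascular smooth muscle and myofibroblasts, read 11.75, 12.11, 11.88 and 12.38 in DSS_WT and 10.47, 11.17, 11.35 and 11.37 in DSS_KO at its brightest probe. All 4 DSS_KO samples were lower than all DSS_WT samples, by 0.94 on average (log2 fold change -0.94, SE 0.221, limma adjusted p 0.0212), which passed 0.05 and was not called. The pair of probes printed above gave -0.82 (adjusted p 0.0521) and -0.81 (adjusted p 0.0490) in limma. The remaining tested Acta2 probe gave -1.04 (adjusted p 0.0160 in limma), so the 4 probes of this gene moved in 1 direction and by similar sizes. In naive samples the brightest probe read 11.90, 11.79, 12.46 and 11.52 in Naive_WT and 11.29, 11.29, 11.33 and 11.79 in Naive_KO, and those groups overlapped.

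The motor and its kinase differed. Myh11, the heavy chain of smooth muscle myosin and the member most restricted to mature smooth muscle, read 9.37, 9.82, 9.46 and 9.96 in DSS_WT and 7.60, 8.44, 8.73 and 8.41 in DSS_KO. The groups did not overlap, and the level was 2.56-fold lower in DSS_KO (log2 fold change -1.36 with an SE of 0.225, limma adjusted p 0.00334). Naive samples read 9.29, 9.17, 9.73 and 9.17 in Naive_WT and 8.88, 8.90, 8.52 and 9.33 in Naive_KO, which overlapped.

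Mylk, the kinase that starts contraction by phosphorylating the myosin light chain, read 10.85, 10.88, 10.93 and 11.19 in DSS_WT and 10.73, 10.80, 11.05 and 10.64 in DSS_KO. These groups overlapped, and the log2 fold change was -0.16 with a 95% interval of -0.43 to 0.12 (adjusted p 0.533 in limma). The interval does not reach the change of 1 that a call needs. The other tested Mylk probes gave 0.018 (adjusted p 0.976) and 0.081 (adjusted p 0.874) in limma. Mylk also has a long non-muscle form, which epithelial cells use at their junctions, and the files do not say which form each probe reads.

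Tagln (transgelin, an actin-binding protein of smooth muscle) read 7.34, 7.40, 6.96 and 7.62 in DSS_WT and 5.04, 6.02, 6.27 and 5.57 in DSS_KO at its brighter probe. The lowest DSS_WT sample lay above the highest DSS_KO sample, a 3.04-fold lower level (log2 fold change -1.60 with an SE of 0.251, limma adjusted p 0.00242). Its second probe, which lies at the very start of the transcript, was dimmer, and gave -0.29 (95% interval -0.63 to 0.053, adjusted p 0.313 in limma), so the 2 probes disagree in size. With no background correction, the log2 fold change of the brighter probe was -0.772, below the size that a call needs. In naive samples the brighter probe read 6.45, 6.32, 7.21 and 6.29 in Naive_WT and 6.04, 5.85, 5.64 and 6.30 in Naive_KO.

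Tpm2 (beta tropomyosin, which lies along the actin filament) read 9.38, 9.43, 9.17 and 9.75 in DSS_WT and 8.22, 9.00, 9.11 and 8.79 in DSS_KO. The groups did not overlap, though samples 3 and 7 lay close together, and the log2 fold change of -0.65 (95% interval -1.18 to -0.12) had an adjusted p of 0.133 in limma. Naive_WT read 9.22, 9.11, 10.08 and 8.68 and Naive_KO 8.64, 8.69, 8.42 and 9.07, which overlapped.

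Lmod1 (leiomodin, which nucleates actin filaments in smooth muscle) was detected less often than the other tested members, on 5 of 5 DSS_WT arrays, 3 of 5 DSS_KO arrays and 3 of 4 arrays of either naive group. It read 5.24, 5.88, 5.16 and 5.80 in DSS_WT and 4.83, 4.66, 5.23 and 5.08 in DSS_KO, with overlap, and its log2 fold change was -0.57 (95% interval -0.94 to -0.20, adjusted p 0.0665 in limma). Naive_WT read 5.17, 4.94, 5.03 and 4.78 and Naive_KO 4.77, 5.18, 5.01 and 5.24.

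Des (desmin, the intermediate filament that ties the contractile units together) read 9.16, 8.94, 8.80 and 9.66 in DSS_WT and 7.49, 8.24, 8.53 and 8.00 in DSS_KO. The groups did not overlap, and the change of -1.08 (SE 0.257, limma adjusted p 0.0227) passed 0.05 and missed the threshold for a call. Naive_WT samples read 8.80, 8.45, 9.57 and 8.31 and Naive_KO samples 8.00, 8.18, 8.07 and 8.32.

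The number of called members changed when single samples were left out. It was 0 without DSS_WT sample 2 or without DSS_KO sample 5, and 1 without DSS_WT sample 4. Calls over all probes, in either direction, also fell, from 189 to 54, 46 and 108 in that order. In those 3 fits the log2 fold change was -1.58, -1.38 and -1.51 for Tagln, -1.47, -1.15 and -1.35 for Actg2 and -1.30, -1.12 and -1.25 for Myh11, with adjusted p-values of 0.00925 to 0.0259 in limma. The median change over the 8 members stayed between -1.13 and -0.807 when each of the 16 samples was left out in turn.

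**Figure D2:**
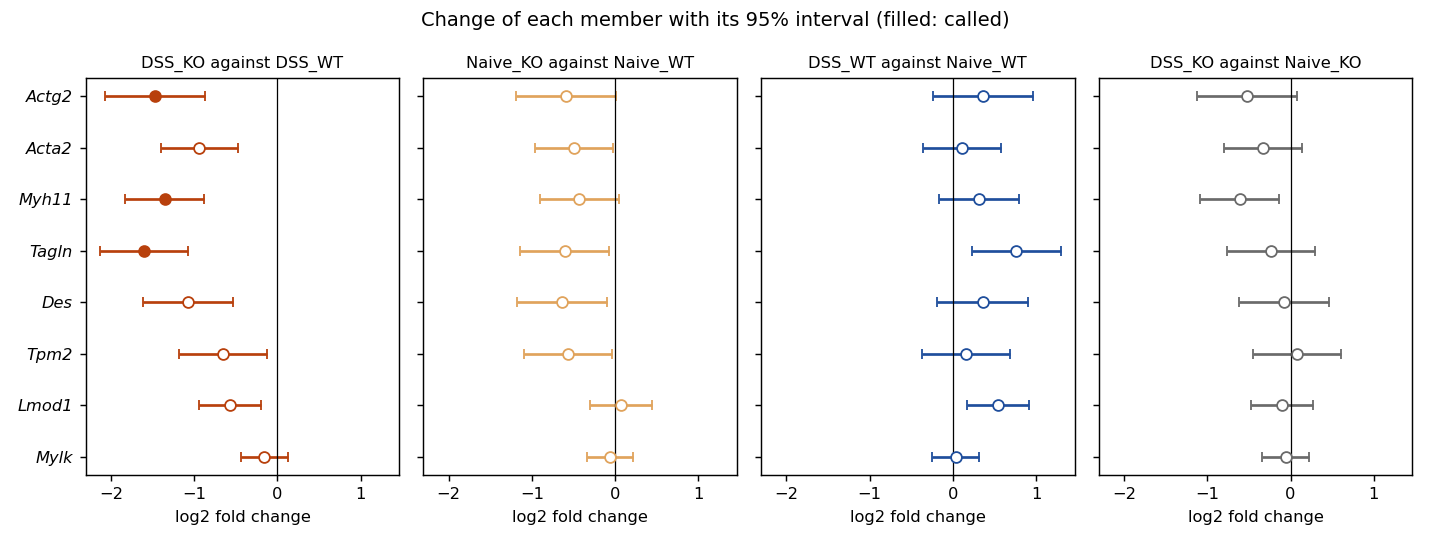
Log2 fold change (horizontal axes) of each tested contractile gene in the 4 comparisons, with 95% intervals from limma, filled where the gene was called. Calls occur only in DSS_KO against DSS_WT, for Tagln, Actg2 and Myh11, and 0 of 8 genes were called in each of the other comparisons.

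Without DSS, 7 of the 8 members had a lower mean in Naive_KO than in Naive_WT, with a median log2 fold change of -0.53 against -0.0101 over all genes. In limma 0 of 8 were called (0.298% of all genes were called lower) and 0 passed an adjusted p of 0.05 (3.03% of all genes did so with a lower level). At an unadjusted p under 0.05 there were 4 members (Des, Tagln, Tpm2 and Acta2), against 22.8% of all tested probes. At the brightest probes, the largest differences were in Des and Tagln. Des differed by -0.64 (95% interval -1.18 to -0.096, adjusted p 0.151 in limma). Tagln differed by -0.61 (95% interval -1.14 to -0.077, adjusted p 0.161 in limma). Its dimmer probe went the other way, at 0.27 (95% interval -0.068 to 0.62, adjusted p 0.328 in limma). The pair of Acta2 probes gave -0.41 and -0.39, beside -0.49 at the brightest. The remaining Acta2 probe gave -0.71 (adjusted p 0.0830 in limma). Mylk differed by -0.064 (95% interval -0.34 to 0.21), with 0.053 and -0.097 at its other tested probes. Lmod1 differed by 0.068 (95% interval -0.30 to 0.44). Naive_WT sample 11 was the highest of its group for 7 of the 8 members, and without it the median was -0.307.

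DSS itself moved no member past the thresholds in WT mice. All 8 means were higher in DSS_WT than in Naive_WT, with a median log2 fold change of 0.334 against 0.00742 over all genes, and 0 of 8 were called (1.51% of all genes were called higher) or passed 0.05 (6.26% of all genes did so with a higher level). Tagln differed by 0.76 (95% interval 0.23 to 1.29, adjusted p 0.0621 in limma) and Lmod1 by 0.54 (95% interval 0.17 to 0.91, adjusted p 0.0596 in limma), and these were the 2 members at an unadjusted p under 0.05, against 26.3% of all tested probes. The median was 0.197 without DSS_WT sample 4 and 0.499 without Naive_WT sample 11. Of the other tested probes, the Acta2 pair gave -0.13 and -0.098 and the remaining Acta2 probe 0.21, beside 0.11 at the brightest. Those of Mylk gave 0.22 and 0.0052, and that of Tagln gave 0.23. Actg2, at 0.36 (95% interval -0.24 to 0.96), Myh11, at 0.31 (95% interval -0.16 to 0.79), and Mylk, at 0.033 (95% interval -0.24 to 0.31), gave adjusted p-values in limma of 0.444, 0.404 and 0.902.

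In Mbd2KO mice, 7 of the 8 means were lower with DSS than without, with a median log2 fold change of -0.166 against -0.0101 over all genes. Again 0 of 8 were called (0.673% of all genes were called lower) and 0 passed 0.05 (4.67% of all genes did so with a lower level), with 1 member at an unadjusted p under 0.05 against 24.5% of all tested probes. That member was Myh11, at -0.61 (95% interval -1.09 to -0.14, adjusted p 0.0994 in limma), while Tagln differed by -0.23 (95% interval -0.76 to 0.30) and Tpm2 by 0.073 (95% interval -0.46 to 0.60). The median was -0.0467 without DSS_KO sample 5 and -0.324 without DSS_KO sample 7. The other tested Mylk probes gave 0.34 and 0.034, beside -0.059 at the brightest. The dimmer Tagln probe gave -0.34. Those of Acta2 gave -0.53, -0.52 and -0.12, beside -0.33 at the brightest.

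Whether the genotype difference itself changed with DSS was tested as an interaction. The estimate was below 0 for all 8 members at their brightest probes, with a median of -0.541 against -0.0233 over all genes. Mylk gave -0.092 there and 0.12 and 0.028 at its other tested probes. The other tested probes of Acta2 gave -0.41, -0.42 and -0.33, and that of Tagln gave -0.56. In limma, 0 of 8 members and 0% of all genes passed an adjusted p of 0.05, and the smallest adjusted p of a member was 0.299. At an unadjusted p under 0.05 there were 4 members, against 10.7% of all tested probes: Myh11 (-0.92, SE 0.319), Tagln (-0.996, SE 0.355), Lmod1 (-0.64, SE 0.248) and Actg2 (-0.88, SE 0.400). A lower level in DSS_KO is therefore not shown to be particular to DSS. The 5 comparisons share samples, so their values are given side by side and were not set against one another.

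For 6 of the 8 members (Actg2, Acta2, Myh11, Tagln, Des and Mylk) the group means ran from DSS_WT, the highest, through Naive_WT and Naive_KO to DSS_KO. Tpm2 differed from this order in its lower pair, where Naive_KO lay below DSS_KO, and Lmod1 in its middle pair. None of the neighbouring pairs that were compared (DSS_WT with Naive_WT, Naive_WT with Naive_KO, and Naive_KO with DSS_KO) passed an adjusted p of 0.05 in limma for any member. The ends of the order, DSS_WT and DSS_KO, differed beyond that threshold for 5 of the 8, and DSS_WT was not compared with Naive_KO, nor Naive_WT with DSS_KO.

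Members rose and fell together from sample to sample. As an index, each gene was centred on its mean over the 16 samples and the 8 deviations were averaged. This index ranged from 0.264 to 0.844 in DSS_WT, -0.13 to 0.693 in Naive_WT, -0.411 to 0.056 in Naive_KO and -1 to -0.0447 in DSS_KO. The DSS groups did not overlap, and Naive_KO also lay below DSS_WT without overlap. All other pairs of groups overlapped. Within groups a single sample often led: DSS_WT sample 4 was the highest of its group for 7 of 8 members, DSS_KO sample 7 for 7, Naive_WT sample 11 for 7 and Naive_KO sample 16 for 8, while Naive_WT sample 12 was the lowest for 8 and DSS_KO sample 5 for 6.

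**Figure D3:**
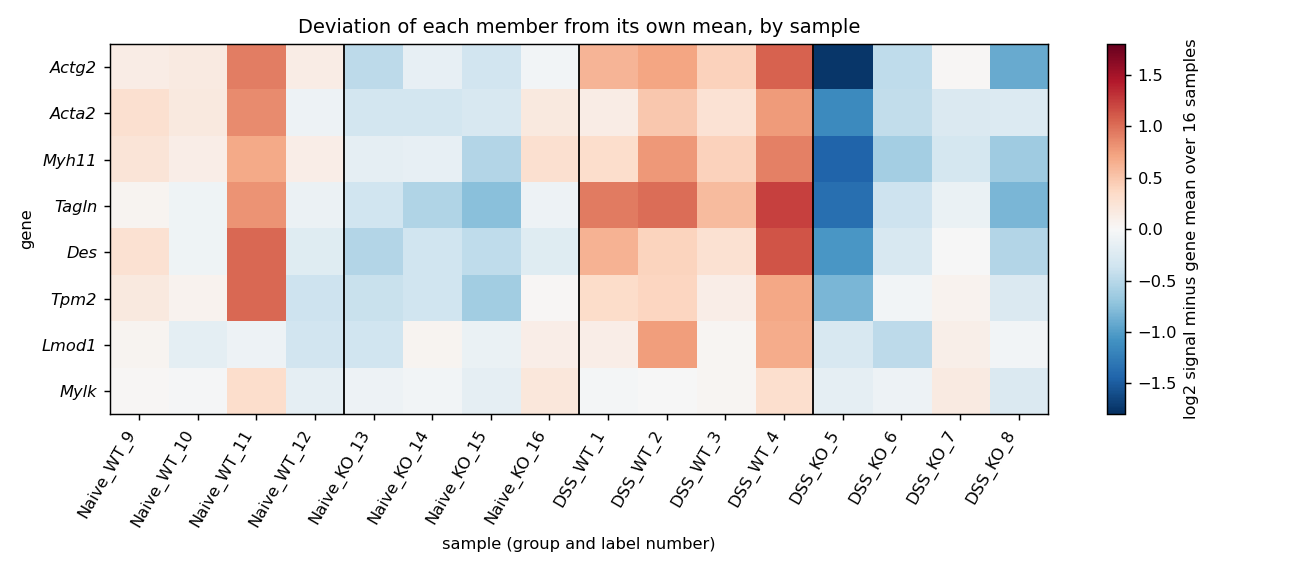
Deviation of each tested contractile gene (rows) from its own mean over 16 samples (columns, grouped), on the log2 scale, red above and blue below the mean. Most of a column often shares a colour: samples 11 and 4 are high for 7 of 8 genes within their groups, and sample 5 is the lowest of its group for 6 of 8.

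Actg2, Acta2, Myh11, Tagln, Des and Tpm2 were the most alike, with Pearson r of 0.825 to 0.955 over their 15 pairs and 16 samples. Mylk gave r of 0.658 to 0.793 with those 6 genes, and Lmod1 gave 0.489 to 0.671 with the other 7. The points share their arrays and the group differences, so these values are a description. Among 15640 other genes, those most like the index by Pearson r over the same 16 samples were Mrvi1 (0.937), Pcp4l1 (0.936), Ndn (0.927), Aoc3 (0.911), Synm (0.910), MGC41689 (0.904), Lims2 (0.904), Cavin1 (0.891), Sox17 (0.884) and Wfdc1 (0.876). Synm encodes an intermediate filament protein that pairs with desmin, Mrvi1 a target of cGMP-dependent kinase at the calcium store of smooth muscle, and Cavin1 a coat protein of caveolae. Without the samples with the lowest and the highest index, DSS_KO sample 5 and DSS_WT sample 4, these 10 values were 0.804 to 0.929.

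Other genes of the smooth muscle apparatus were taken from a list. Of 25 further genes on the list, 16 were tested. In DSS_KO against DSS_WT 14 had a lower mean, with a median log2 fold change of -0.293 against -0.0193 over all genes. For this list and those below, 0.419% of all genes were called lower in this comparison and 3.52% were lower at 0.05. Shares over all genes in the other comparisons are those given above. In limma 1 was called lower, Pdlim3 (an actinin-binding LIM protein, -1.18, adjusted p 0.00568), and 3 passed 0.05, the others being Fhl1 (-1.11, adjusted p 0.0298) and Flna (filamin A, -0.88, adjusted p 0.0280). Myl9, the regulatory light chain of smooth muscle myosin, changed by -0.87 (95% interval -1.41 to -0.33, adjusted p 0.0565 in limma). Smtn (smoothelin) gave -0.31 (95% interval -0.65 to 0.027). Cald1 (caldesmon) was detected on only 1 of 5 DSS_WT and 2 of 5 DSS_KO arrays, so its level could not be compared. In the naive comparison 0 of the 16 were called or passed 0.05 in limma. With DSS in WT mice 0 were called and 2 were higher at 0.05, and in Mbd2KO mice 1 was called, Fhl1 (-1.98), of 2 that were lower at 0.05. Fhl1 group means were 11.29 in Naive_WT, 11.68 in Naive_KO, 10.81 in DSS_WT and 9.70 in DSS_KO, an order that no member showed.

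Of the regulators of these genes, 6 of 9 listed were tested, and 0 were called or passed 0.05 in any of the 5 comparisons. Srf, serum response factor, gave -0.43 in DSS_KO against DSS_WT (95% interval -0.83 to -0.029, adjusted p 0.192 in limma). Myocd, myocardin, was detected on 0 of 5 DSS_WT and 2 of 5 DSS_KO arrays, so background limits any difference there.

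Relatives of the members that most cells use were read on the same arrays. Of 12 tested non-muscle relatives, 0 were called in DSS_KO against DSS_WT and 1 passed 0.05, with a median of -0.154: Actb, cytoplasmic beta actin, at -0.46 (adjusted p 0.0444 in limma). Non-muscle myosin Myh9 gave -0.11 (95% interval -0.36 to 0.15), Myh14 0.15 (95% interval -0.11 to 0.40) and Myh10, detected on 3 of 5 DSS_WT and 1 of 5 DSS_KO arrays, -0.32 (95% interval -0.63 to -0.021), where Myh11 gave -1.36. Tagln2, the transgelin of other cells, gave -0.20 (95% interval -0.50 to 0.093) beside -1.60 for Tagln. Among tropomyosins Tpm1 gave -0.22, Tpm4 -0.47 and Tpm3 0.65 (95% interval 0.030 to 1.26), beside -0.65 for Tpm2, all with adjusted p-values above 0.05 in limma. The Tpm3 value rests on a wide spread in DSS_WT, with an SD of 0.831 and a lowest sample of 9.35, against an SD of 0.0236 in DSS_KO. The light chains Myl6 and Myl12b gave -0.062 and 0.015. The difference between a member and its relative was not tested.

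**Figure D4:**
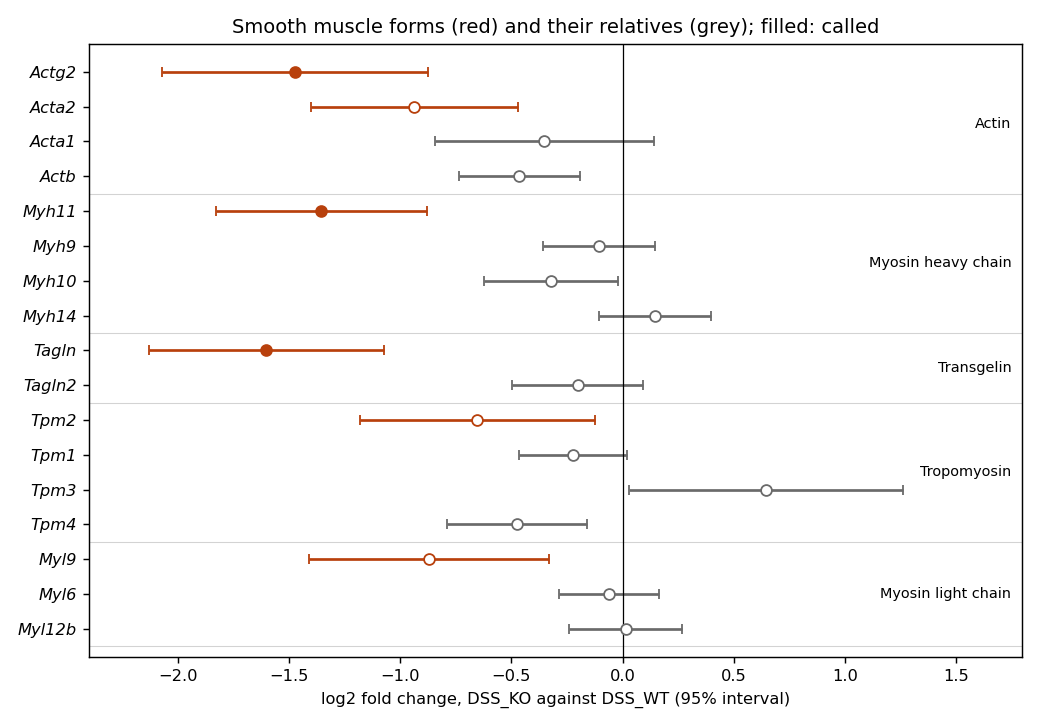
Log2 fold change in DSS_KO against DSS_WT (horizontal axis, 95% interval from limma) of smooth muscle forms in red and of their relatives in grey, by protein family, filled where called. The smooth muscle forms shown (Actg2, Acta2, Myh11, Tagln, Tpm2 and Myl9) lie at -0.65 or below. The relatives shown lie between -0.47 and 0.65. The members Des (-1.08), Lmod1 (-0.57) and Mylk (-0.16) are not shown, and the Mylk value lies within the range of the relatives.

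Fibroblast, matrix and endothelial markers were also mostly lower in DSS_KO than in DSS_WT. Of 21 tested fibroblast and matrix genes, 21 had a lower mean in DSS_KO than in DSS_WT, 10 passed 0.05 and 1, Col6a2, was called in limma, with a median of -0.807. With DSS in WT mice, 16 of those 21 were higher at 0.05 (6.26% of all genes) and 9 were called (1.51% of all genes). In that comparison 0 contractile members passed. In DSS_KO against Naive_KO, 18 of the 21 had a higher mean (median 0.311), where 7 of the 8 members had a lower mean (median -0.166). In Naive_KO against Naive_WT the fibroblast median was -0.12, where that of the members was -0.53. Of 14 endothelial genes, 13 had a lower mean in DSS_KO, 9 passed 0.05 and 5 were called in limma (Flt1, Esam, Eng, Emcn and Tek), with a median of -0.859. The endothelial median was -0.439 in Naive_KO against Naive_WT and 0.0453 in DSS_KO against Naive_KO. Summed over each list on the linear scale, the signal ran from 10070 to 14460 in DSS_WT and from 4403 to 8090 in DSS_KO for the contractile members. It ran from 11670 to 16000 and from 7791 to 10340 for the fibroblast list, and from 2124 to 3037 and from 1192 to 1692 for the endothelial list. Of the defining markers, Col1a1, Col3a1, Dcn, Pecam1 and Cdh5 were detected on all 18 arrays.

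Epithelial genes gave no call. Of 15 tested, 0 were called or passed 0.05 in DSS_KO against DSS_WT in limma, the median was 0.0451, and the summed signal ran from 110500 to 122900 in DSS_WT and from 113400 to 125600 in DSS_KO. Of 7 tested pericyte genes 7 had a lower mean in DSS_KO, 2 passed 0.05 and 1 was called (Mcam, -1.16, adjusted p 0.00628 in limma), at summed signals of 333.4 to 464.4 and 290.1 to 341.3. The defining pericyte marker Rgs5 was near background, detected on 2 of 5 DSS_WT and 1 of 5 DSS_KO arrays. Of 4 tested genes of interstitial cells of Cajal, 3 were lower at 0.05 and 0 were called, with summed signals of 2772 to 3003 and 1776 to 2221. With DSS these genes split. In DSS_WT against Naive_WT, 2 were lower and 1 higher at 0.05 (4.56% and 6.26% of all genes). In DSS_KO against Naive_KO, 3 were lower and 1 higher (4.67% and 5.17% of all genes).

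Of 7 tested genes of enteric neurons and glia, 6 had a lower mean in DSS_KO, 0 passed 0.05 in limma, and the defining markers S100b and Elavl4 were detected on 0 of 18 arrays. Their summed signal was 298.6 to 501.5 in DSS_WT and 275.6 to 364.1 in DSS_KO. Of 3 tested mesothelial genes 0 passed 0.05, at 12260 to 15580 and 13440 to 18070, and the defining Msln was detected on 0 of 18 arrays. That sum is carried by Krt19, a keratin that colon epithelium also makes (log2 means of 13.82 in DSS_WT and 13.88 in DSS_KO), and is no measure of mesothelium. Of 6 tested genes of striated muscle, 1 passed 0.05, the cardiac actin Actc1 (adjusted p 0.0204 in limma), which was detected on 4 of 5 DSS_WT and 0 of 5 DSS_KO arrays and so has only a bound in DSS_KO, at summed signals of 10500 to 13340 and 9331 to 10040. The striated list also holds Tpm1, given above among the relatives that most cells use, so its sum is no measure of striated muscle alone. The striated defining markers split: Acta1 was detected on all 18 arrays, Myh4 on 0, and Ckm on 2 of 4 Naive_WT, 1 of 5 DSS_WT and 0 of the other arrays. The part of these cell types in the levels of the contractile genes was not tested.

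**Figure D5:**
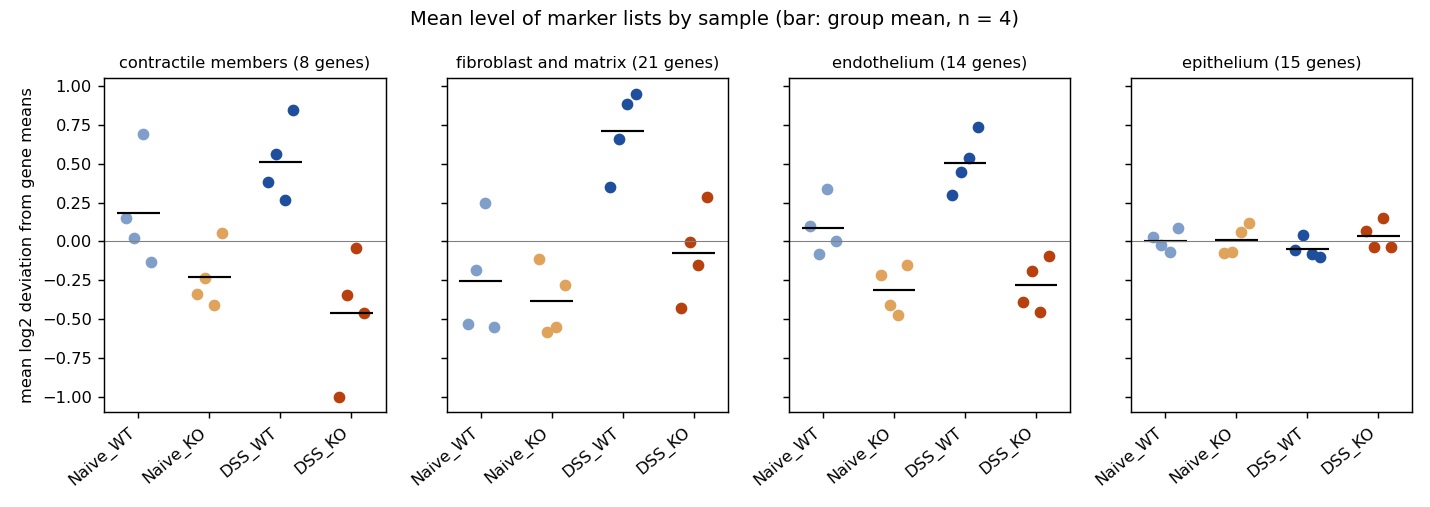
Mean log2 deviation from gene means (vertical axis) of the 8 contractile members, 21 fibroblast and matrix genes, 14 endothelial genes and 15 epithelial genes in each sample, by group (horizontal axis). Points are samples and bars group means of 4. DSS_KO lies below DSS_WT without overlap for the first 3 lists, and the epithelial list stays between -0.0994 and 0.149 in all samples.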

How the data were processed

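Total RNA of colon epithelial cells sorted by flow cytometry was measured on 18 arrays. Per the file headers the deposited intensity is the mean bead signal per probe with no normalization (export version 1.1.1), and the deposited detection p-value ranks a probe among the 936 negative controls of its array. The submitters' processing notes name lumi and limma, and that normalized table was not used here. Signals were background-corrected, quantile-normalized and log2-transformed with neqc (limma 3.58.1, R 4.3.3, offset 16). This shrinks differences of dim probes. Tests were limited to probes detected at p under 0.05 on 4 or more arrays (21938 probes, 15757 genes). Arrays 4R and 5R were taken as repeats of 4 and 5 and averaged with them. These pairs differed less (SD 0.194 and 0.236) than other pairs of their groups (at least 0.334 and 0.287). One model of 4 group means over 16 samples gave all contrasts (empirical Bayes, two-sided), with Benjamini-Hochberg adjustment per contrast over all probes. The number of arrays limits the precision. Bead numbers and bead standard errors were deposited with each signal and described the probes only.

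The members and lists were chosen with earlier results of these data known. The members were named at all probes, and all other genes were read at their brightest probe only. Non-muscle relatives were listed in advance, and not all of those tested are named. From the other smooth muscle genes and regulators, those called in any contrast were named, with Myl9, Cald1, Smtn, Myocd and Srf. Flna, Actc1 and Acta1, and the genes called in the lists of other cell types, were named after their values were seen. The 10 most similar genes outside the lists were named by Pearson r. The alternatives were other background corrections, normalizations, filters, repeat handling, fits and weights, and leaving out each sample. The code was tested on simulated data.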

Additional observations from a re-analysis of the deposited data

Results flagged for a closer look

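A single sample stood apart from the other 3 of its group, by a gap to its nearest neighbour that exceeded Dixon's 95% limit for 4 values as a share of the group's range, in 2 of 32 combinations of gene and group. Chance flags about 1 in 20 groups. Actg2 read 11.78 in Naive_WT sample 11, where the next sample of that group read 11.02. Acta2 read 11.79 in Naive_KO sample 16, where the next sample read 11.33. These were also the samples that led their groups for 7 and 8 of the 8 members. The interaction of genotype and DSS passed 0.05 after adjustment for 0 of 8 members in limma.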

How the results depend on the processing

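The median log2 fold change of the members kept its sign under every alternative in DSS_KO against DSS_WT (-1.21 to -0.807), in the naive comparison (-0.644 to -0.307), with DSS in WT mice (0.197 to 0.662) and in the interaction (-0.686 to -0.382). The comparison of DSS_KO with Naive_KO ran from -0.324 to 0.0379. All 8 members stayed lower in DSS_KO than in DSS_WT under every alternative in which they were tested, and the number of calls did not hold. From 3, it fell to 1 with no background correction and to 1 in a fit of both groups alone. It rose to 5 with all 18 arrays as separate samples, and ranged from 0 to 4 when samples were left out in turn. Calls over all probes, in either direction, were 189 in the main fit. They were 49 with no background correction, 188 in the fit of both groups alone and 420 with all arrays separate. The fit with all arrays separate treats the repeats 4R and 5R as further samples. The count at 0.05, from 5, fell to 3 without the filter on dim probes and ranged from 3 to 6 over the left-out samples, with the low of 3 without DSS_WT sample 4 or DSS_KO sample 5. Over all 26 alternatives this count ran from 3 to 7. Actg2 lost its call in 13 of 26 alternatives, Myh11 in 4 and Tagln in 3.

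Between DSS_WT and Naive_WT, median scaling gave 1 call (Tagln) and 2 members at 0.05, and it moved the median of all probes by 0.241, so these changes include that shift. At 0.05, 1 member passed with no background correction, an offset of 50 or array weights, 2 with all arrays separate, and 0 to 1 over the left-out samples, 1 each without DSS_WT sample 1 or 3, DSS_KO sample 5 or 7, or Naive_WT sample 11. Between DSS_KO and Naive_KO, 1 passed with all arrays separate and 1 with array weights. The cause was not tested.

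Signs of single genes turned in 20 cases, none of them in DSS_KO against DSS_WT and none past 0.05. Under median scaling, which moved the median of all probes by 0.233 in DSS_KO against Naive_KO, Acta2 read 0.071, Des 0.25, Mylk 0.311 and Tagln 0.004, and Tpm2 read -0.038 with all arrays separate. With samples left out in turn, the values that crossed 0 ranged from -0.001 to 0.16 (Lmod1) and -0.143 to 0.028 (Mylk) in the naive comparison, from -0.024 to 0.29 (Acta2), -0.044 to 0.126 (Mylk) and -0.037 to 0.43 (Tpm2) in DSS_WT against Naive_WT, from -0.234 to 0.111 (Des), -0.141 to 0.02 (Mylk) and -0.037 to 0.26 (Tpm2) in DSS_KO against Naive_KO, and from -0.357 to 0.11 (Tpm2) in the interaction. No paired analysis was possible because the groups share no sample numbers. Signal over background limits Lmod1, Cnn1 and Synpo2, and of the other genes Myocd, Cald1, Myh10 and Actc1.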
